A study of Homo sapiens with 3 samples.

Results

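PPP3R2, GRIN3A, CYLC2 and PLPPR1 lie on chromosome 9q31, beside the gene-poor DNA that separates GRIN3A from SMC2. Their promoter contacts were read from promoter capture Hi-C (PCHi-C) of hESC-CMs, heart muscle cells grown in culture from a human embryonic stem cell line. That line, WA09 (H9), is an established one, and 3 biological replicates of the differentiated cells formed the only group. All 3 had passed through the same differentiation kit and enrichment in lactate without glucose, with no other treatment, no altered allele and no undifferentiated or untreated control in the files. The submitters checked purity with the cardiomyocyte markers MYH7 and TNNT2 and did not claim that every cell was a cardiomyocyte. PCHi-C measures contacts and not RNA, so the cell type and the activity of these genes could not be checked in these data.

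A promoter fragment was taken as the HindIII fragment that holds an annotated transcript start of one of the 4 genes and stands in the promoter column of the calls. Every contact of that fragment was kept, in either column, and an interacting fragment (PIR) is the fragment at its other end. The value of a contact is its CHiCAGO score, which weighs the reads of a fragment pair against those expected from their distance and from noise, and the files list contacts from a score of 5. A promoter fragment was found for 3 of the 4 genes, which made 3 of the 19075 promoter fragments of the series. Together these 3 fragments had 477 of the 200587 contacts called in at least 1 replicate. The genes were chosen by the number and score of these same contacts, which are therefore given as a description without a test.

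GRIN3A encodes a subunit of the NMDA receptor, a glutamate-gated ion channel of neurons that lets calcium into the cell. PPP3R2 encodes a regulatory subunit of calcineurin, the calcium-activated phosphatase that acts on NFAT transcription factors, and it is known mainly from testis. CYLC2 encodes a cylicin, a protein of the sperm head, and PLPPR1 encodes a membrane protein of the phospholipid phosphatase related family, known from neurons. In chromatin, promoters usually meet fragments of their own neighbourhood more often than distant ones, and contacts between gene-poor, inactive regions can span longer distances. PCHi-C pulls down Hi-C ligation products with baits for promoter fragments, so each contact has a promoter at one end at least.

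In GRCh37, the PPP3R2 gene (chr9:104353886-104357303, minus strand) lies inside the GRIN3A gene (chr9:104331634-104500929, minus strand) and overlaps 0 of its exons. The PPP3R2 promoter fragment was chr9:104355435-104359032, and the GRIN3A promoter fragment was chr9:104496716-104501962, with 138 kb between them. PLPPR1 (chr9:103791009-104087417, plus strand) had its promoter fragment at chr9:103789819-103793208. CYLC2 (chr9:105757593-105780770, plus strand) stood in the promoter column with none of its starts. Upstream sequences of all 4 genes were matched from RefSeq (GRCh38.p14 table) to GRCh37, and those of the 3 promoters with a contact are shown because they are the promoter ends of the members' contacts. Each is written 5′ to 3′ on the gene's strand and stops before the first annotated start. Capitals mark GGGCGG, a GC box, or CCAGNNGGC, a core of the CTCF motif, on either strand.
PPP3R2 (chr9:104357304-104357501, minus strand): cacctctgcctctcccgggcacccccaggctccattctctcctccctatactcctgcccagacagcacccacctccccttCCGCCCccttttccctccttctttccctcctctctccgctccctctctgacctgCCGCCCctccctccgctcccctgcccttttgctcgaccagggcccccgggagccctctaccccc
GRIN3A (chr9:104500930-104501179, minus strand): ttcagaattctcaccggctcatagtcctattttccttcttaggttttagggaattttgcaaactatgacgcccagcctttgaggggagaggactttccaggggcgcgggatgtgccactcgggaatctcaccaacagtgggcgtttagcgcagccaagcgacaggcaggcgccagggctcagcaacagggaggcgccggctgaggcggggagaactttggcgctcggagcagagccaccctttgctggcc
PLPPR1 (chr9:103790759-103791008, plus strand): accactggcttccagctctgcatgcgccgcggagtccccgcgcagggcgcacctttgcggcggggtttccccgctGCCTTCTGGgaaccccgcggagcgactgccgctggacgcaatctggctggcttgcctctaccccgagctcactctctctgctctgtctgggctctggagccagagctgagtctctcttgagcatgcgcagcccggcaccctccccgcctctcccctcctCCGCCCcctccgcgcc

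The PPP3R2 stretch held 2 GC boxes in 198 bases, and 34.5% of all RefSeq promoters held at least 1 in the same window. GRIN3A held 0 in 250 bases and PLPPR1 held 1, against 42.6% of promoters in that longer window. A TATA box (TATAAA), searched on both strands as every motif here was, stood in none of the 3 and in 10.8% of promoters within 250 bases. The CCAAT box was also in none of them and in 32.0% of promoters. The cyclic AMP response element (TGACGTCA) was likewise in none, and 1.64% of promoters held it. The GC content was 68.2% for PPP3R2, 58.8% for GRIN3A and 70% for PLPPR1, beside a median of 57.1% over promoters in the shorter window and 58.0% in the longer one. The upstream sequence of CYLC2, which has no promoter fragment, had a GC content of 25% and 0 CpG dinucleotides in 228 bases. A CTCF core was present in the PLPPR1 stretch and was found nowhere in the promoter fragments of PPP3R2 (3598 bp) and GRIN3A (5247 bp).

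The interacting fragments below stand for the patterns described in the next paragraphs. They are written 5′ to 3′ on the plus strand of GRCh37. For whole fragments, capitals mark the bases that HindIII cleavage leaves at both ends, and for the stretch of the OR13D1 fragment they mark a CTCF core.
A fragment that PPP3R2 contacted at higher scores (chr9:107364480-107364638): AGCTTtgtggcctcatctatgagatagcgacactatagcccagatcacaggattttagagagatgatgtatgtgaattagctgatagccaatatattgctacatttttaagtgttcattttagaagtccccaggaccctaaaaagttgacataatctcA
Part of the OR13D1 promoter fragment (chr9:107456744-107456812): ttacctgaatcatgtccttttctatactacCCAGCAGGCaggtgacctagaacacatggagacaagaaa
The fragment PLPPR1 contacted in more than 1 replicate (chr9:103479673-103479913): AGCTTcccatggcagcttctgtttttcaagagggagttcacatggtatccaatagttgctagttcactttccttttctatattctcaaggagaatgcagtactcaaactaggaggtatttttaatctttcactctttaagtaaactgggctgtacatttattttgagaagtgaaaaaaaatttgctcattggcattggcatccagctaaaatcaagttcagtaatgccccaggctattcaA

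PPP3R2 and GRIN3A were among the promoter fragments with the most contacts in these cells, and their contacts all ended more than 1 Mb away. PPP3R2 was called with 156, 163 and 150 interacting fragments in replicates 1, 2 and 3. GRIN3A was called with 185, 188 and 174. The replicates differed by less than 10% of these numbers. Over the 3 replicates, PPP3R2 had 211 different contacts and GRIN3A 258, while the median promoter fragment of the series had 6. PPP3R2 thereby ranked 15 and GRIN3A 6 of all 19075 promoter fragments, or 10 and 4 by contacts within the same chromosome.

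Of the members' 477 contacts, 217 (45.5%, 95% Wilson interval 41.1 to 49.98) were called in all 3 replicates. Over all contacts of the series that share was 24.0%, and over same-chromosome contacts of 1.25 to 3.25 Mb it was 15.1%. The range of 1.25 to 3.25 Mb held 467 of the members' contacts, of which 46.5% were called in all 3. PPP3R2 had 108 contacts that every replicate called, 42 that 2 replicates called and 61 from 1 replicate. For GRIN3A, these numbers were 109, 71 and 78. The share in all 3 was 51.2% (44.5 to 57.8) for PPP3R2 and 42.2% (36.4 to 48.3) for GRIN3A, with overlapping intervals that cover counting error only.

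The contacts of both genes ran one way, toward higher coordinates and away from the PLPPR1 side. This held for 211 of 211 contacts of PPP3R2 and for 257 of 258 of GRIN3A. The exception of GRIN3A was on chromosome 21, was called in replicate 1 alone and had a score of 10.15. The median distance was 2845 kb for PPP3R2, with a range of 1671 to 17180 kb, and 2563 kb for GRIN3A, with a range of 1251 to 3028 kb. The contact of PPP3R2 at 17180 kb was called in replicate 1 alone with a score of 6.17, and its next farthest lay 3235 kb away. Neither gene had a contact within 1 Mb. Among 469 promoter fragments with at least 50 same-chromosome contacts, 115 (24.5%) had none within 1 Mb. These 115 include PPP3R2, GRIN3A and 8 OR13 promoter fragments of the same stretch of chromosome 9, and 105 lay elsewhere.

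**Figure D1:**
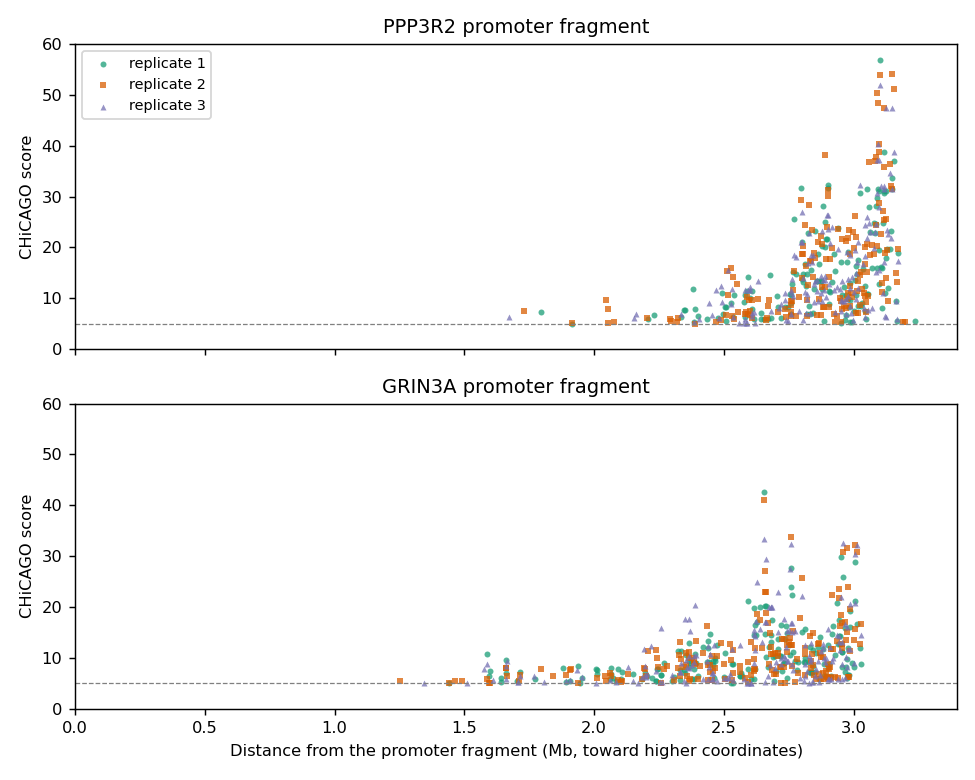
CHiCAGO score (vertical axis) of each contact of the PPP3R2 and GRIN3A promoter fragments against its distance from the promoter fragment in Mb (horizontal axis), with 1 symbol per replicate and a dashed line at the lowest listed score of 5. Contacts of both genes begin beyond 1.25 Mb, become dense and high in score beyond 2.5 Mb and stop near 3 Mb. The contact of PPP3R2 at 17180 kb lies outside the plot.

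The gene desert next to GRIN3A was almost empty of these contacts, and the following desert was only partly filled. Between GRIN3A and CYLC2 lie 1257 kb (chr9:104500930-105757592) without another protein-coding gene, and there 0 contacts of PPP3R2 and 1 contact of GRIN3A ended. The single one was called with a score of 5.37. Between CYLC2 and SMC2, which encodes a condensin subunit, lie another 1076 kb (chr9:105780771-106856540). Here 35 contacts of PPP3R2 ended, none of them called in all 3 replicates, and 86 of GRIN3A, of which 13 were called in all 3. The deserts together took 25.6% of the members' contacts, and 63.4% of those counted after fragments within 5 kb were joined, which merges the dense contacts beyond SMC2.

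Counted as single fragments, most contacts ended at or beyond SMC2. Between SMC2 and OR13F1, the first of a cluster of olfactory receptor genes, PPP3R2 had 82 contacts (38.9%), of which 46 were called in all 3 replicates. GRIN3A had 85 there (32.9%), with 45 in all 3. Between OR13F1 and NIPSNAP3A, which encodes a mitochondrial NIPSNAP protein, PPP3R2 had 76 contacts (36.0%, 57 in all 3) and GRIN3A 71 (27.5%, 40 in all 3). Fragments with no annotated gene made up 167 of the 211 contacts of PPP3R2 and 208 of the 258 of GRIN3A, in GENCODE v44 lifted to GRCh37. Those shares, 79.1% and 80.6%, were close to the 78.2% of all 481 HindIII fragments from 106.0 Mb to NIPSNAP3B that hold no annotated gene. Fragments over an OR13 gene or pseudogene were 11 of the 211 contacts of PPP3R2 (5.21%) and 10 of the 258 of GRIN3A (3.88%). The same share over all HindIII fragments of the stretch was not computed.

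Per 100 kb, the share of HindIII fragments contacted rose with distance and then fell to 0. From 106.0 to 106.1 Mb, 5.13% of 39 HindIII fragments were contacted by PPP3R2 and 15.4% by GRIN3A. From 106.8 to 106.9 Mb, around SMC2, these shares were 56.7% and 76.7% of 30 fragments. Both shares were therefore larger near SMC2, with GRIN3A ahead. From 107.0 to 107.1 Mb, 53.3% and 70% of 30 fragments were contacted, but only 1 of them by PPP3R2 and 3 by GRIN3A in all 3 replicates. In the next bin, from 107.1 to 107.2 Mb, 92.6% of 27 fragments were contacted by each gene, and 20 of them in all 3 replicates by each.

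The dense stretch ended at the NIPSNAP3B promoter fragment (chr9:107524885-107529278). It was the last fragment that either gene contacted in all 3 replicates. PPP3R2 contacted it with scores of 18.98, 19.61 and 17.4, and GRIN3A with 8.8, 16.59 and 14.41. The scores of PPP3R2 lay above all 3 of GRIN3A there. From 107.1 Mb to the end of that fragment, PPP3R2 contacted 128 of 139 HindIII fragments (92.1%), 100 of them in all 3 replicates, and GRIN3A 121 (87.1%), 78 of them in all 3. In the next stretch of equal length (chr9:107529279-107958556), which holds ABCA1, a cholesterol exporter, PPP3R2 contacted 3 of 108 fragments (2.78%) and GRIN3A 0. The boundary was placed with these calls in view, and a fragment without a listed contact may still have had a score under 5. The distances are those of the GRCh37 reference, and the order of the sequence in the cells themselves was not measured by these files.

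**Figure D2:**
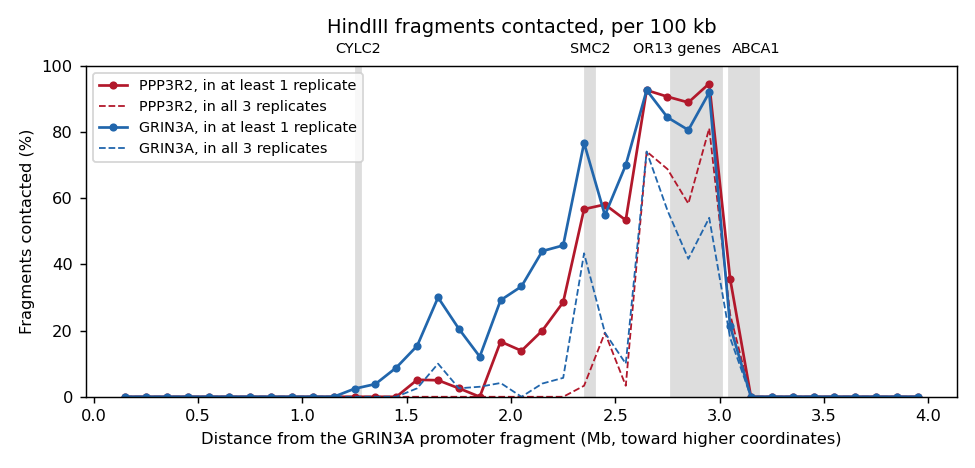
Percentage of HindIII fragments contacted per 100 kb (vertical axis) by the PPP3R2 and GRIN3A promoter fragments, against distance from the GRIN3A promoter fragment in Mb (horizontal axis). Solid lines count contacts in at least 1 replicate, dashed lines those in all 3, and grey bands mark named genes. The lines stay at or near 0 across the first desert, lie between 88.9% and 94.6% for PPP3R2 just before and in the OR13 cluster, and return to 0 within ABCA1.

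At the near end, the first fragment contacted in all 3 replicates was chr9:106084240-106085537 for GRIN3A, with scores of 10.77, 5.77 and 8.83. For PPP3R2 it was chr9:106888610-106892999 in SMC2, with scores of 6.24, 14.19 and 6.27. The contacts of GRIN3A in all 3 replicates thus began 804 kb before those of PPP3R2. Between contacts called in all 3 replicates, the mean score was higher at larger distances, with a Spearman rho of 0.53 over 108 contacts of PPP3R2 and 0.45 over 109 of GRIN3A. These contacts share a promoter fragment and the same 3 libraries, so the coefficients are only descriptive.

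The strongest contact of PPP3R2, judged by mean score as throughout, was with the promoter fragment of OR13D1 (chr9:107456320-107462296). This is an olfactory receptor gene, 3102 kb away. The scores of that contact were 56.91, 53.87 and 51.87 in replicates 1, 2 and 3, a mean of 54.2 ± 2.54 (SD, n = 3). By mean score this was followed by the NIPSNAP3A promoter fragment (chr9:107507830-107515574), with 37.01, 51.22 and 38.71. The third was chr9:107449550-107452542, without an annotated gene, with 31.49, 48.44 and 40.39. The contact with OR13D1 lay above both others in every replicate, and the scores of those others overlapped. It was not the highest of all in replicate 2, where chr9:107503317-107504130 had 54.05. In the merged calls OR13D1 was again first, with 58.21, but second place went to chr9:107503317-107504130 with 51.55, and NIPSNAP3A had 31.04.

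The strongest contact of GRIN3A was a fragment without an annotated gene (chr9:107154056-107155217), 2655 kb away. Its scores were 42.56, 40.96 and 33.42, a mean of 39.0 ± 4.88 (SD, n = 3). A fragment between SMC2 and OR13F1 (chr9:107257369-107258495) had 27.71, 33.79 and 32.48. A fragment just before NIPSNAP3A (chr9:107503317-107504130) had 28.86, 32.26 and 30.47. The first of these 3 was the highest of them in every replicate, in replicate 3 by less than 1 unit of score. In the merged calls it scored 31.88 and the fragment before NIPSNAP3A 34.13, so the order of the strongest depends on the set of calls. PPP3R2 contacted the fragment at chr9:107154056-107155217 with 31.75, 29.31 and 21.14, below GRIN3A in every replicate.

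Contacts called in all 3 replicates had higher scores for PPP3R2 than for GRIN3A. A score is set against the reads expected at each distance, and no read counts were used. Higher scores therefore need not mean more reads. The median of their mean scores was 16.2 (quartiles 11.4 and 22.6) for PPP3R2 and 10.7 (8.77 and 15.0) for GRIN3A. Over 6360 same-chromosome contacts of the series at 1.25 to 3.25 Mb in all 3 replicates, the median was 10.1, with quartiles of 7.99 and 13.6. At a score of at least 20, PPP3R2 had 63 contacts and GRIN3A 28, and at 30 these numbers were 25 and 6. GRIN3A thus had more contacts and PPP3R2 had more of the high scores.

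The same fragments were largely contacted by both genes, whose promoter fragments lie in one gene body. They shared 176 interacting fragments, which was 83.4% of those of PPP3R2 and 68.2% of those of GRIN3A. Of the fragments called in all 3 replicates for each gene, 72 were shared, or 66.7% for PPP3R2 and 66.1% for GRIN3A. No contact was called between the promoter fragments of PPP3R2, GRIN3A and PLPPR1 themselves. The libraries are the same for both genes, so the overlap is a description of these 3 replicates.

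Over the 72 shared fragments, PPP3R2 had the higher score in every replicate at 36, GRIN3A at 3, and the order varied at 33. The median difference, PPP3R2 minus GRIN3A, was 3.99 in replicate 1, 6.89 in replicate 2 and 3.30 in replicate 3. It therefore had the same sign in each replicate. The higher scores of PPP3R2 lay mainly at the far end. From 107.4 to 107.53 Mb it was higher in every replicate at 24 of 25 shared fragments, with median mean scores of 27.6 against 15.5. From 107.1 to 107.4 Mb it was higher at 12 of 45 and GRIN3A at 3, with medians of 16.3 against 12.0. The PPP3R2 promoter fragment lies farther from all of these fragments, and the expected reads depend on distance. Whether it had more reads there was not tested.

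A fragment with higher scores of PPP3R2 in every replicate is among the sequences printed above. This 159-base fragment at chr9:107364480-107364638 was contacted by PPP3R2 with 16.32, 22.03 and 9.93 and by GRIN3A with 5.84, 6.79 and 5.23. There all scores of PPP3R2 were above all of GRIN3A. The fragment overlapped no annotated gene.

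**Figure D3:**
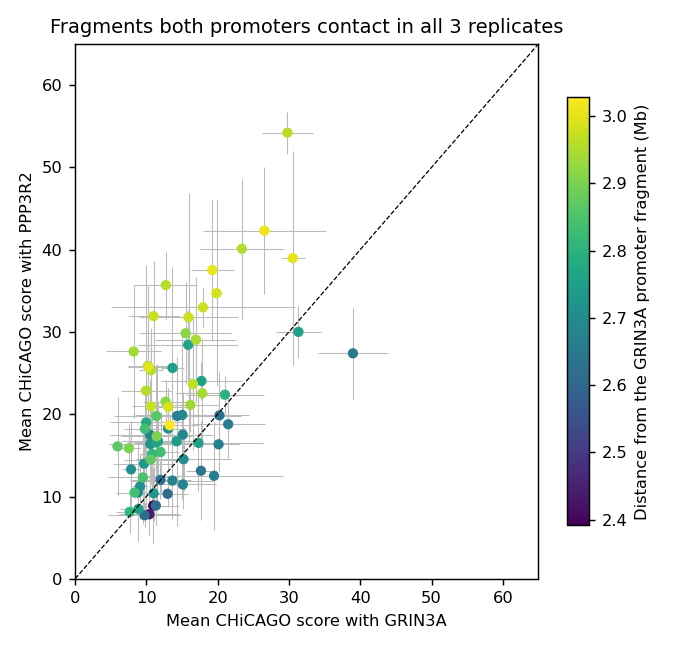
Mean CHiCAGO score with PPP3R2 (vertical axis) against that with GRIN3A (horizontal axis) for the 72 fragments that both contacted in all 3 replicates, with grey bars for the SD of 3 replicates and colour for the distance from the GRIN3A promoter fragment in Mb. The dashed line marks equal scores. Most of the farthest fragments lie above the line, and the nearest lie on or below it.

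Promoters of olfactory receptor genes were among the fragments contacted. PPP3R2 contacted the promoter fragments of 10 other loci and GRIN3A those of 11, and for each gene 9 of these contacts were called throughout. Those called in all 3 belonged to the same genes for both: OR13F1, OR13C3, OR13C8, OR13C5, OR13C2, OR13C9, OR13D1, NIPSNAP3A and NIPSNAP3B. OR13C4 was called in replicates 2 and 3 for both genes, and the SMC2 promoter fragment in replicates 2 and 3 for GRIN3A alone, with scores of 6.41 and 8.24. All of these promoter fragments except that of SMC2 lie in the dense stretch that ended at NIPSNAP3B. There PPP3R2 contacted 92.1% of all 139 HindIII fragments and GRIN3A 87.1%, with 100 and 78 fragments in all 3 replicates. Whether promoter fragments were contacted more often than the other fragments of that stretch was not tested. Olfactory receptors are the odorant receptors of the nasal epithelium, and their RNA was not measured here.

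For OR13D1, GRIN3A had scores of 25.83, 30.91 and 32.62, all below the lowest score of PPP3R2. For NIPSNAP3A, GRIN3A had 16.66, 30.87 and 32.16, again all below those of PPP3R2. With OR13C3 (chr9:107297759-107299349) PPP3R2 had 23.78, 23.62 and 19.73, and GRIN3A had 15.03, 25.74 and 22.26. These scores overlapped. For OR13C9 (chr9:107379775-107380694) PPP3R2 had 30.63, 14.65 and 32.24, and GRIN3A had 11.82, 6.96 and 11.9, without overlap. The remaining OR13 contacts called in all 3 replicates had mean scores of 14.5 to 19.8 for PPP3R2 and of 9.97 to 12.0 for GRIN3A.

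**Figure D4:**
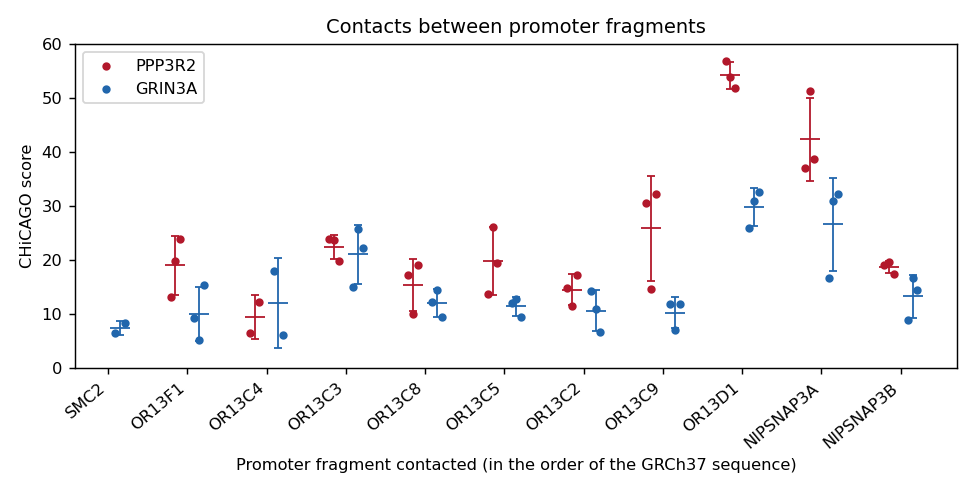
CHiCAGO scores (vertical axis) of the contacts of PPP3R2 and GRIN3A with other promoter fragments, in the order of the GRCh37 sequence. Points are replicates that called the contact, and bars show mean and SD over 3 replicates, or over 2 for SMC2 and OR13C4. OR13D1 stands highest for both genes, at 54.2 for PPP3R2 and 29.8 for GRIN3A.

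The olfactory receptor promoters had their own contacts around GRIN3A, at the promoter fragments of PPP3R2 and GRIN3A and at other fragments. The 10 promoter fragments from 107.2 Mb to NIPSNAP3B had between 47 (NIPSNAP3B) and 211 (OR13D1) contacts on chromosome 9. The GRIN3A gene holds the centres of 48 HindIII fragments, which include the promoter fragments of PPP3R2 and GRIN3A. Of these 48, OR13D1 contacted 47, and 44 of them in all 3 replicates. OR13C3 also contacted 47, with 37 in all 3, and NIPSNAP3A contacted 44, with 29 in all 3. OR13C4 contacted 28, with 2 in all 3, and NIPSNAP3B, the last promoter of the stretch, contacted 7, also with 2 in all 3. The other 5 contacted 41 to 45, with 11 to 35 in all 3. These contacts were not limited to GRIN3A: of the 155 HindIII fragments from the RNF20 promoter fragment to 104.8 Mb, which include those of GRIN3A, the 10 promoters contacted from 9.68% (NIPSNAP3B) to 76.8% (OR13C3 and OR13D1).

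GRIN3A has another annotated start inside the gene, in the fragment chr9:104367096-104385237, which stood only at the interacting end of contacts. It was contacted by 7 promoter fragments, in all 3 replicates by OR13C3, OR13C5 and OR13D1. The scores with OR13D1 were 7.69, 9.8 and 11.41, below those of the GRIN3A promoter fragment with OR13D1 in each replicate. The highest mean, 14.7, was with NIPSNAP3A, which was called in replicates 2 and 3.

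Contacts with the same distal stretch, from 106.0 Mb to NIPSNAP3B, were called for promoters next to PPP3R2 in smaller numbers. PPP3R2 had 207 interacting fragments there and GRIN3A 252. On the side of lower coordinates, RNF20, which encodes a ubiquitin ligase of histone H2B, had 80, of which 19 were called in all 3 replicates. PGAP4, a gene of GPI anchor processing, had 62 with 20 in all 3, and TMEM246-AS1, an antisense RNA gene, had 97 with 18 in all 3. BAAT, a gene of bile acid conjugation, had 28. The fragment shared by MRPL50 and ZNF189 had 24, and CAVIN4, a cavin of muscle, had 2. The promoter fragments of INVS, TEX10 and MSANTD3, still farther on that side, had 0 or 1, and TMEFF1 and LINC00587 had no promoter fragment in the calls. Numbers were thus highest at GRIN3A and PPP3R2 and lower farther to this side. The highest mean scores over contacts beyond 1 Mb did not follow these numbers. RNF20 reached 58.3 and PGAP4 53.1, beside 54.2 for PPP3R2 and 39.0 for GRIN3A. The fragment of MRPL50 and ZNF189 reached 33.1, TMEM246-AS1 29.7 and BAAT 13.2. Beyond the stretch, ABCA1 had 55 contacts in all, 51 of them within 1 Mb, and SLC44A1, a choline transporter gene, had 41 with 36 within 1 Mb.

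Within the desert itself, the only promoter fragments with a contact were those of the RNA genes RNU6-329P and AL391867.1, with 4 and 10 contacts to that stretch and none in all 3 replicates. By the share of interacting fragments in common with the members, out of all fragments of either, the promoters most like them were TMEM246-AS1 (98 shared, 31.5%), RNF20 (82, 25.2%), PGAP4 (64, 19.5%) and BAAT (28, 9.06%). Likeness was measured over the 299 interacting fragments of the members.

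**Figure D5:**
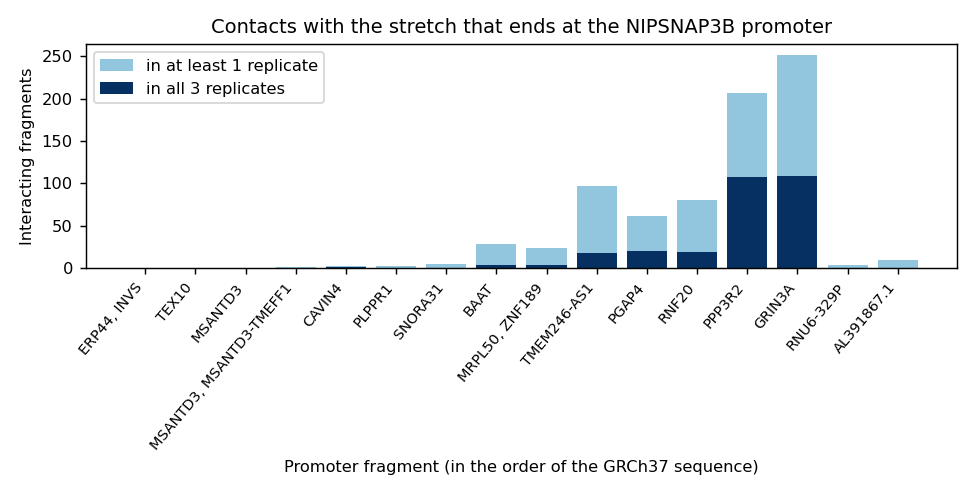
Number of interacting fragments between 106.0 Mb and the end of the NIPSNAP3B promoter fragment (vertical axis, from 0) for promoter fragments from INVS to the GRIN3A side desert, in the order of the GRCh37 sequence. Pale bars count contacts in at least 1 replicate and the dark bars drawn over them those in all 3. GRIN3A and PPP3R2 reach 252 and 207, and no other promoter fragment shown exceeds 97.

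PLPPR1, on the other side of PPP3R2, had few contacts. None were called in replicate 1, 4 in replicate 2 and 5 in replicate 3, which made 8 different contacts and 0 in all 3 replicates. Its nearest contacts were 4 fragments 299 to 327 kb away toward lower coordinates. One of these, the 241-base fragment printed above (chr9:103479673-103479913), was called in more than 1 replicate, with scores of 5.15 and 5.94 in replicates 2 and 3. With 8 contacts PLPPR1 had close to the series median of 6.

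Among the contacts of PLPPR1 were 2 in the stretch contacted by PPP3R2 and GRIN3A. The fragment chr9:107503317-107504130, among the strongest of GRIN3A, was called for PLPPR1 in replicate 3 alone, with a score of 9.21. PPP3R2 contacted this fragment with 31.45, 54.05 and 31.45. The fragment chr9:107475550-107476373 was called for PLPPR1 in replicate 2 alone, with 5.21, while PPP3R2 had 30.78, 47.42 and 17.13 and GRIN3A 11.99, 24 and 11.74. These were the only fragments contacted by all 3 genes. One contact of PLPPR1 lay on chromosome 11 and another 77753 kb away, each called in 1 replicate.

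CYLC2 had no contact to describe. Its 7 HindIII fragments were contacted by 0 promoter fragments in any replicate, although all but 1 of the chromosome 9 contacts of GRIN3A passed over it to its far side. Whether CYLC2 was among the baited promoters was not given by these files, and contacts under a score of 5 are not listed.

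The interacting fragments were set beside those of the whole series in sequence features that their choice did not use. Almost all of them lie in 1 stretch of chromosome 9, so a trait of that stretch cannot be told apart from one of theirs. Their median GC content was 36.7% for those PPP3R2 contacted in all 3 replicates and 36.5% for those of GRIN3A, beside 40.3% over 116591 interacting fragments of the series. Their median lengths of 2187 and 2051 bp were near the 2096 bp of the series. A CTCF core, CCAGNNGGC on either strand, stood in 20.4% of those of PPP3R2 and 15.6% of those of GRIN3A, beside 31.6% over the series. That share was not computed over the other fragments of the same stretch. The OR13D1 fragment held 2 such cores, of which 1 is printed above, and a match to these letters is not a bound site.

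From 107.1 Mb to the end of NIPSNAP3B's promoter fragment, contacted and other fragments differed mainly in length. The 130 fragments contacted by either gene had a median length of 2506 bp and a GC content of 36.7%. The 9 without a contact had 384 bp and 36.1%. Near-identical copies elsewhere in the genome, of at least 500 bp at 95% identity or more, were found for 2 interacting fragments of PPP3R2 and 2 of GRIN3A. Without them, 107 of 108 and 108 of 109 contacts in all 3 replicates remained. Fragments shorter than 500 bp could not meet this minimum and are counted among those that remained. None of the 3 promoter fragments had such a copy, even at 80% identity.

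Related genes elsewhere in the genome had far fewer contacts than PPP3R2 and GRIN3A, which were chosen for the number and score of theirs. The comparison is therefore only a description. PLPPR1, with 8 contacts, lay within the range of the genes below, and CYLC2 had none. Of the other calcineurin subunits, the regulatory PPP3R1 had 4 contacts and the catalytic PPP3CA, PPP3CB and PPP3CC had 8, 13 and 16. Of the other NMDA receptor subunits with a promoter fragment, GRIN2A had 13, GRIN2B 8, GRIN2C 7 and GRIN2D 4. The cylicin gene CYLC1 had 5. Of the PLPPR1 family, PLPPR3 and PLPPR4 had 1 each and PLPPR5 had 3. GRIN1, GRIN3B and PLPPR2 had no promoter fragment in the calls. MEIS1, a transcription factor gene that also borders gene-poor DNA, had 46 and 42 contacts at its 2 promoter fragments, with 18 and 11 of them within 1 Mb. IRX3 and IRX5, homeobox genes at another desert, had 19 each, and MEIS2 had 12. None of these promoter fragments reached the number of PPP3R2 or GRIN3A.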

How the data were processed

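PCHi-C of 3 biological replicates of hESC-CMs was used as the authors deposited it, with the calls of each replicate and those of the merged replicates, 4 sets in all. The values are CHiCAGO scores, which the authors computed with default parameters after mapping reads with HiCUP to GRCh37. Versions were not given in the sources used here. The deposited scores have 2 decimals and start at 5, and they depend on depth, which is not given per replicate in the sources used here. No count per fragment pair was used, so no interval on a score can be given. The replicates hold 112473, 109731 and 110740 calls and the merged set 152757.

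A contact is an unordered pair of HindIII fragments, and the union of the 3 replicates was the main set. Fragment ends were compared with HindIII sites, and 5037 of 5037 fragments on chromosome 9 in the calls matched. Distances are between fragment midpoints, a mean over fewer than 3 replicates is over those with a call, and SDs are between replicates. Shares have 95% Wilson intervals, which cover counting error only. Genes and starts came from GENCODE v44 lifted to GRCh37, and upstream sequences from RefSeq. Near-identical copies were sought with minimap2 2.31-r1302. Other steps used Python 3.11.15, numpy 2.4.6, pandas 2.3.3, scipy 1.17.1 and matplotlib 3.10.9, and the contact functions were tested on simulated data.

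The members, lists and named genes were chosen with earlier results of these data known. Named were the members, their neighbours from INVS to SLC44A1, their gene families, the Iroquois and MEIS genes, the 5 promoters sharing most interacting fragments, promoters contacted in all 3 replicates, and the 3 strongest fragments per member in all 3 replicates. RNU6-329P, AL391867.1, OR13C4, the inner GRIN3A start, and the fragments printed as sequence or contacted by PLPPR1 were added after their values were seen. A neighbouring promoter and an interacting fragment are not reported here. Alternatives were scores of at least 7 and 10, the merged calls, each replicate left out, ordered pairs, matching within 5 kb, same-chromosome contacts and protein-coding starts.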

Additional observations from a re-analysis of the deposited data

How the results depend on the processing

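Of 74 alternative values, 46 stayed within 1.5 times the main count or 1 SD of the replicates, 28 moved and 0 reversed. The 477 contacts became 267 at a score of at least 10 and 93 when fragments within 5 kb were joined. The share in all 3 replicates, 45.5%, was 40.3% at a score of at least 7, 33.0% at 10 and 78.4% with matching within 5 kb. With a replicate left out, the share in both remaining ones was 57.6% to 61.9%. The median distance of 2705 kb became 2771 kb at 7, 2843 kb at 10, 2792 kb in the merged calls, 2223 kb with matching within 5 kb and 2734 to 2738 kb with a replicate left out. The share ending in the deserts, 25.6%, was 14.4% at 7, 6.37% at 10, 13.5% in the merged calls, 63.4% with matching within 5 kb and 22.1% to 23.1% with a replicate left out. The 176 shared fragments became 96 at a score of at least 10. Joining within 5 kb leaves fewer, larger units where contacts are dense, and higher minimum scores leave fewer contacts by construction. Other causes were not tested. PLPPR1 kept 1 contact at a score of at least 7, and 5 and 4 without replicate 2 and replicate 3. In the merged calls the fragment with the highest mean score for GRIN3A had 31.88 in place of 39.0 and was no longer first. No value was obtained under any alternative for contacts between the members' promoter fragments, since none was called. No paired analysis was possible because the 3 replicates form 1 group. The lowest listed score of 5 limits every absence described.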
